A study of Mus musculus with 24 samples.

Results

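Metallothioneins and the transporters that move zinc and manganese across hepatocyte membranes were followed in mouse liver before and after acetaminophen (APAP) injury. The 5 genes were taken by symbol, Mt1, Mt2, Slc39a14, Slc30a1 and Slc30a10, out of 24411 genes counted in 24 libraries of polyA RNA. All 5 passed the filter on low counts in every comparison.

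The study asked how the ploidy of hepatocytes bears on APAP injury, and used loss of E2f7 and E2f8, the atypical E2F repressors, as the tool to change it. In the liver-specific knockout (LKO) cohort, labelled KO, mice carried floxed E2f7 and E2f8, R26R-mTmG and an Alb-Cre transgene that acts in the hepatocyte and bile duct lineage from development on, on a mixed and predominantly FVB background. Such livers are made up mainly of diploid hepatocytes. Their controls, labelled WT, were floxed littermates without Cre according to the methods. In the hepatocyte-specific knockout (HKO) cohort, labelled CRE, floxed mice received AAV8-TBG-Cre at 2 months of age, which acts in hepatocytes, and their controls, labelled NULL, received AAV8-TBG-Null. Deletion in the adult leaves ploidy as it was, so this model served to set the loss of the genes apart from the ploidy. All mice were male and 2.5 months old and had been fasted overnight for about 16 h. At 0 h, untreated mice were sequenced singly, 3 Null, 3 HKO, 4 control and 4 LKO mice. At 12, 24, 48, 72 and 96 h after 300 mg/kg APAP, given intraperitoneally, RNA of 3 mice was pooled into 1 library per genotype, so a pool has no replicate. The HKO cohort was sequenced at 0 h alone. Feeding after injection and the hour of the day at collection were not given in the sources used here.

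Metallothioneins are small cysteine-rich proteins that bind zinc and copper, and Mt1 and Mt2 are the liver forms. Their transcription rises with free zinc through the zinc-sensing factor MTF1, which binds metal response elements (MRE), and also with glucocorticoids, interleukin-6 and oxidative stress. Slc39a14 (ZIP14) brings zinc, manganese and iron that is not bound to transferrin into hepatocytes and is known to rise in the acute phase response. Slc30a1 (ZnT1) exports zinc across the plasma membrane and is, like the metallothioneins, an MTF1 target. Slc30a10 (ZnT10) exports manganese, in hepatocytes towards bile, and its loss causes manganese overload.

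Mt2 (chr8:94172664-94173568, plus strand, GRCm38) and Mt1 (chr8:94179082-94180327, plus strand) lie next to each other, 5513 bases apart. Slc30a10 (chr1:185454848-185468762, plus strand) and Slc30a1 (chr1:191906767-191913247, plus strand) are on the same chromosome, and Slc39a14 is at chr14:70303469-70351425 on the minus strand. The values are exonic counts of the whole gene, so transcripts of a gene are not told apart. RefSeq promoter entries were matched for 4 of the 5 genes, all but Slc39a14. They are shown because Mt1, Mt2 and Slc30a1 share a regulator whose core letters can be read in them. Each runs 5′ to 3′ on the plus strand of GRCm38.p6 and stops just before the RefSeq start or the GENCODE gene start given above, whichever comes first, at chr8:94178839-94179081 for Mt1, chr8:94172368-94172617 for Mt2, chr1:191906531-191906766 for Slc30a1 and chr1:185454598-185454847 for Slc30a10. Capitals mark the MRE core, TGCACNC or TGCGCNC on either strand.
Mt1: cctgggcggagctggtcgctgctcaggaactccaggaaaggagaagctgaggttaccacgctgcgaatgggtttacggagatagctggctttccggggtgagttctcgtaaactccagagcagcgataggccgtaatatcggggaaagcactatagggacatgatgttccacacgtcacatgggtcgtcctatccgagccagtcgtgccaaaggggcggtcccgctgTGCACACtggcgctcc
Mt2: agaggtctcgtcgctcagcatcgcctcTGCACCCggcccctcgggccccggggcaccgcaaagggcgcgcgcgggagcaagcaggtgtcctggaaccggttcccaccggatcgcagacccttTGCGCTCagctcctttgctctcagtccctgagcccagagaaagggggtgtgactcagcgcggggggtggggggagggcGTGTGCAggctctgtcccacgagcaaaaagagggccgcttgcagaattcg
Slc30a1: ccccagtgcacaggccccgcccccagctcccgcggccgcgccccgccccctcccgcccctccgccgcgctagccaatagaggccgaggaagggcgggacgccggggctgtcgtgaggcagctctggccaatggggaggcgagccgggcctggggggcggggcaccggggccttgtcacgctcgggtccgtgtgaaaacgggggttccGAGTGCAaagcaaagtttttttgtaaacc
Slc30a10: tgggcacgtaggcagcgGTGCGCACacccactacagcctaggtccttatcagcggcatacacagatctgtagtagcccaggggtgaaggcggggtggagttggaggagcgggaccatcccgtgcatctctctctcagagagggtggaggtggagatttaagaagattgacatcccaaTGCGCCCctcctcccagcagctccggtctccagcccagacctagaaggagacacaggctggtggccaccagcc

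The Mt2 sequence held 3 MRE cores, starting 223, 128 and 50 bases before the RefSeq start, and another lay just after it. Positions are counted from the RefSeq start throughout, which for Mt2 lies upstream of the GENCODE start and for Mt1 and Slc30a1 downstream of it. Mt1 held 1 core before the start and 2 within the 50 bases after it. GENCODE lists further Mt1 transcripts that start downstream of this window. Slc30a1 held 1 before and 1 after. Slc30a10 held 3, and 2 of them overlap by all but 1 base, so they form a single stretch. Over the 300 bases around the start, 25.7% of 32851 RefSeq promoters held at least 1 such core, 7.11% at least 2, 1.97% at least 3 and 0.517% at least 4. The antioxidant response core TGACNNNGC, found in 12.4% of promoters, was present once in Mt2, where it reads TGACTCAGC, and once in Slc30a1. The hypoxia core ACGTG or GCGTG, found in 43.8%, was present in all 4 promoters, and in Mt2 1 match overlaps the MRE core 50 bases before the start. The STAT letters TTCNNNGAA, found in 8.3%, were in none of these 4 windows. A match gives letters and no evidence of binding.

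Reads on genes numbered 12665686 to 19499897 per library (median 16500386), and 3 counts correspond to 0.154 to 0.237 CPM. CPM stands for the count relative to the library total after TMM scaling, the trimmed-mean normalization of edgeR. The whole-gene count of E2f8 was 15.2 to 26.4 CPM in Null and 30.7 to 83.9 CPM in HKO mice, and 11.6 to 18.7 CPM in control and 17.7 to 34.2 CPM in LKO mice at 0 h. That count covers the whole gene and not the deleted part alone, so it does not check the labels. All 8 hepatocyte markers were detected in every library, with sums of 53823 to 138309 CPM. The control pool at 12 h had 13.6% of its reads on no feature, against 7.30% to 10.9% in the rest of its cohort, so the calls of the 5 genes at 12 h and the genotype difference after APAP are also given without that time or pool. The 6 libraries of the HKO cohort had 12.6% to 14.7%.

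Per kilobase of the principal transcript, the metallothioneins were the most abundant of the 5 genes in uninjured control liver. Mt1 had a level of 1179 ± 1225 CPM per kilobase (SD, n = 4) and Mt2 of 711 ± 740. Slc39a14 followed at 56.3 ± 13.2. Slc30a1, at 7.42 ± 0.626, and Slc30a10, at 7.03 ± 0.807, were lowest. Within a mouse, Mt1 was above Mt2 in all 4 control mice and in all 14 mice at 0 h, though the means of the 2 genes lie within the spread between mice. Per kilobase, Slc30a1 was above Slc30a10 in 2 of the 4 control mice, so this pair had no order there. In Null mice, Slc30a10 was lower than Slc30a1, at 3.54 ± 0.68 against 9.59 ± 1.15 CPM per kilobase (SD, n = 3).

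In the LKO cohort, Mt1 and Mt2 differed more among untreated mice of one genotype than nearly every other gene did. In the 4 control mice Mt1 was 23.3, 666, 1576 and 324 CPM, and Mt2 was 4.04, 441, 861 and 148 CPM. The lowest control mouse therefore stood 67.6-fold below the highest for Mt1 and 213-fold for Mt2. The highest, control mouse 3, was also the library with the fewest reads on genes (12665686) and the most unmapped reads, 20.6% against 4.11% to 12.0% in the other control mice. The part of library quality in its level was not tested. The lowest mouse had 69 Mt2 reads, and the exact Poisson interval of its level, 3.14 to 5.12 CPM, covers counting error only. In the 4 LKO mice Mt1 was 350, 299, 63.3 and 66.6 CPM and Mt2 was 237, 176, 12.6 and 12.4 CPM. Here the mice formed a high and a low pair for both genes. Of 14501 genes ranked by the standard deviation of log2 CPM, Mt2 was number 8 and Mt1 number 14 among control mice, and Mt2 number 20 and Mt1 number 124 among LKO mice. Mt2 had a standard deviation of 3.43 log2 units among control mice, and the median gene 0.295. The HKO cohort was tighter, with Mt1 at 1030, 380 and 333 CPM in Null and 762, 297 and 375 CPM in HKO mice. Mt2 was 594, 229 and 133 CPM in Null and 588, 128 and 221 CPM in HKO mice. There the ranks were 283 for Mt2 and 611 for Mt1 among Null mice, and 395 and 1529 among HKO mice.

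The 3 transporters varied less between mice than Mt1 and Mt2. The highest control mouse exceeded the lowest 1.70-fold for Slc39a14, 1.21-fold for Slc30a1 and 1.3-fold for Slc30a10. In standard deviation of log2 CPM among control mice, Slc30a1 ranked 12764 of 14501 genes and Slc30a10 11416. Slc39a14 varied more than the median gene, at 0.35 against 0.295 log2 units in control mice (rank 5877), and at 0.53 against 0.223 in HKO mice (rank 2633).

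**Figure D1:**
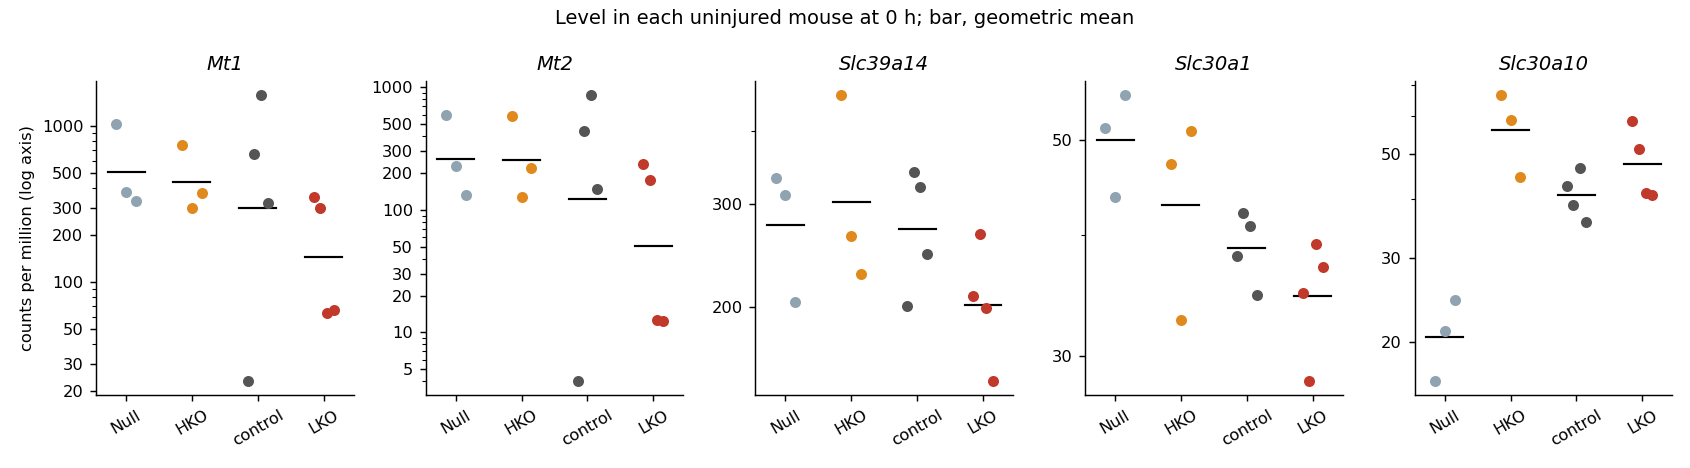
Level of each gene in CPM (log axis) in the single mice at 0 h, by group, with a bar at the geometric mean. Mt1 and Mt2 range from 23.3 to 1576 and from 4.04 to 861 CPM among the 4 control mice, and Slc30a10 is at 16.5 to 24.4 CPM in Null against 44.7 to 66.4 CPM in HKO mice.

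Mt1 and Mt2 moved together from library to library, but not in a fixed proportion. Mt1 had more reads than Mt2 in 23 of 24 libraries, and the count ratio ran from 5.77 down to 0.95. The 3 libraries with the least metallothionein RNA, control mouse 1 and LKO mice 3 and 4, had the 3 highest ratios, 5.77, 5.01 and 5.39. Their summed levels were 27.4, 76 and 79 CPM. In the other 21 libraries the ratio lay between 0.95 and 2.5, and the sum between 375 and 6375 CPM. In the control pools of 12, 24, 48, 72 and 96 h the ratio was 1.37, 1.37, 1.29, 1.07 and 0.95, and in the LKO pools 1.91, 1.3, 1.5, 1.58 and 1.58. Mt2 thus outnumbered Mt1 in the control pool of 96 h alone. The knockouts did not differ from their controls in this ratio at 0 h by an exact two-sided permutation test of the mean log2 ratio. It was 0.79 ± 0.42 in HKO and 0.95 ± 0.33 in Null mice (SD, n = 3 each, exact p = 0.6, and 3 against 3 mice cannot go below 0.1). It was 1.52 ± 0.99 in LKO and 1.28 ± 0.86 in control mice (SD, n = 4 each, exact p = 0.943).

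**Figure D2:**
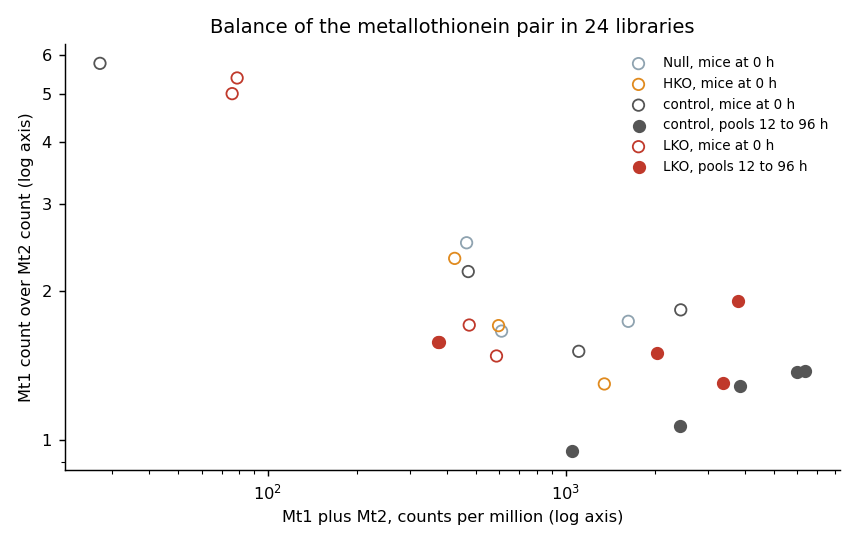
Ratio of Mt1 to Mt2 counts (log axis) against their summed level in CPM (log axis) in 24 libraries, open for single mice at 0 h and filled for pools after APAP. The 3 mice with sums of 27.4 to 79 CPM have ratios of 5.01 to 5.77, and the 21 other libraries lie between 0.95 and 2.5.

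Loss of E2f7 and E2f8 in adult hepatocytes went with more Slc30a10 RNA, the manganese exporter, and with no call for the other 4 genes. Slc30a10 was 16.5, 21.0 and 24.4 CPM in the Null mice and 66.4, 59.0 and 44.7 CPM in the HKO mice. The fitted increase was 2.77-fold (log2 1.47, SE 0.18, 95% interval 1.07 to 1.87, edgeR adjusted p = 0.00586). Calls needed an adjusted p under 0.05 together with a fold of at least 1.5. Of the 5 genes, 1 was called, beside 0.96% of 12397 genes tested. The call held in all 16 alternatives run, with adjusted p from 1.81e-11 to 0.0377. Mt1 (log2 -0.27, adjusted p = 0.869), Mt2 (-0.02, 0.993), Slc39a14 (0.18, 0.843) and Slc30a1 (-0.19, 0.724) were not called. Their 95% intervals still take in a change of 1.5-fold in one direction or both, except that of Slc30a1, which ends at -0.56 and 0.19.

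Genes of the circadian clock moved in the same comparison. Of 14 clock genes tested, 1 rose and 6 fell in HKO mice. The largest changes were in Usp2, a clock-controlled deubiquitinase (log2 -3.53, adjusted p = 0.018), and Dbp, a clock output transcription factor (log2 -2.70, adjusted p = 0.0176). The part of the clock genes in the Slc30a10 difference was not tested. No marker tested from the 9 cell type lists was called in this comparison, and none of 9 copper handling, 16 STAT3 acute phase, 9 glucocorticoid-induced, 8 hypoxia or 7 NRF2 target genes tested was called. Only 2 of 8 neutrophil, 1 of 7 lymphocyte, 1 of 5 erythroid and 1 of 6 pancreas markers were tested. The median log2 change was 1.99 for the 2 neutrophil markers, 0.59 for the acute phase and -0.52 for the glucocorticoid-induced genes. It was -0.05 for the copper, -0.20 for the hypoxia and 0.007 for the NRF2 genes, beside 0.012 over all genes. With 3 mice per group, no call does not mean no change. The neutrophil markers summed to 0.58 to 2.63 CPM in Null and 2.45 to 12.4 CPM in HKO mice, with Cxcr2 at 0 in Null mice.

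Loss from development on, in the LKO model, gave no call among the 5 genes at 0 h. Slc30a10 was 42.8, 38.9, 46.7 and 35.8 CPM in control and 58.6, 51.1, 41.3 and 40.8 CPM in LKO mice. These ranges overlapped, and the fitted difference was 0.23 log2 units (SE 0.15, 95% interval -0.10 to 0.56, edgeR adjusted p = 0.999). Beside these values the Null mice, at 16.5 to 24.4 CPM, were below every mouse of the LKO cohort, and the HKO mice were within or above its range. The cohorts differ in virus, in the time since Cre came on, in the ploidy that the models are known for and in the share of reads on no feature, and these cannot be told apart. Slc39a14 was 201, 341, 321 and 246 CPM in control and 209, 266, 199 and 149 CPM in LKO mice (log2 -0.42, SE 0.21). Mt1 and Mt2 differed by -1.72 and -1.72 log2 units, but their standard errors were 0.94 and 1.23 and the groups overlapped. Without control mouse 3 the differences were -0.79 and -0.85, and without any other single mouse they ran from -2.16 to -1.43 for Mt1 and from -2.43 to -1.35 for Mt2, with no call. Of all 12426 genes tested 0 were called, 0%, with 352 at an unadjusted p under 0.05 and 3 called by DESeq2, none of them among the 5.

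The difference between the LKO effect and the HKO effect was tested directly. For Slc30a10 it was -1.24 log2 units (SE 0.24, 95% interval -1.76 to -0.72). It ranked number 7 of 12945 genes by unadjusted p (0.000131), but its adjusted p in edgeR was 0.242. None of the 5 genes was called, beside 0% of all genes, with 579 genes at an unadjusted p under 0.05. DESeq2 called 21 genes, Slc30a10 among them (adjusted p = 0.00565). Across the 23 alternatives the adjusted p for Slc30a10 ran from 0.00565 to 0.965, and the difference itself from -1.39 to -1.10.

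**Figure D3:**
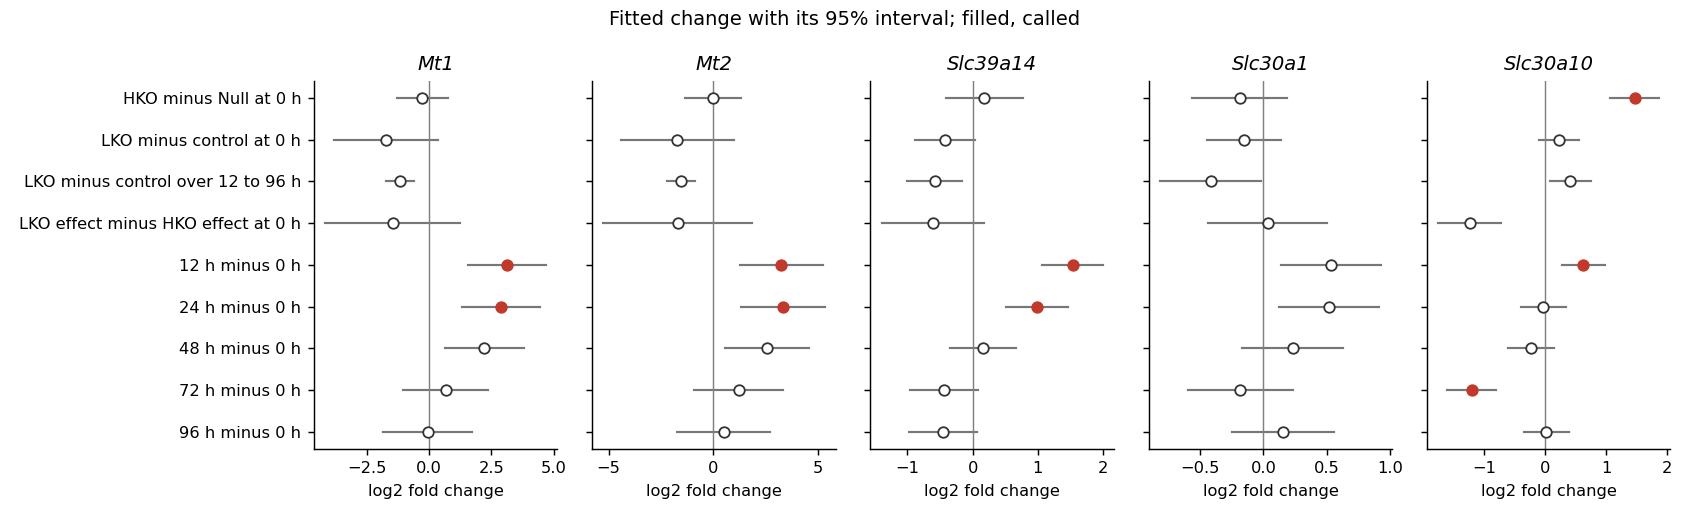
Fitted log2 fold change (point) and its 95% interval (line) for each gene in each comparison, filled where called at adjusted p under 0.05 and a fold of at least 1.5. Mt1, Mt2, Slc39a14 and Slc30a10 are filled at 12 h, the first 3 of them also at 24 h, Slc30a10 is filled for HKO minus Null (1.47) and at 72 h (-1.21), and no gene is filled in the remaining genotype comparisons.

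After APAP the metallothioneins and Slc39a14 rose early and returned, while Slc30a10 was lowest at 72 h. In control pools Mt1 was 3690, 3456, 2174, 1249 and 514 CPM at 12, 24, 48, 72 and 96 h. In LKO pools it was 2480, 1907, 1220, 229 and 229 CPM. Both pools at 12, 24 and 48 h lay above every 0 h mouse of their own genotype, and those at 96 h within its range. Mt2 was 2685, 2520, 1690, 1171 and 541 CPM in control pools and 1298, 1463, 815, 146 and 145 CPM in LKO pools. With time as the factor and both genotypes in the fit, Mt1 rose 8.84-fold at 12 h (log2 3.14, SE 0.74, edgeR adjusted p = 0.00404) and 7.32-fold at 24 h (log2 2.87, SE 0.74, adjusted p = 0.00881). Mt2 rose 9.55-fold at 12 h (log2 3.26, SE 0.94, adjusted p = 0.0138) and 10.0-fold at 24 h (log2 3.33, SE 0.95, adjusted p = 0.0154). At 48 h both were still higher in value, by 2.22 and 2.58 log2 units, but missed the threshold (adjusted p = 0.0521 and 0.0716).

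Slc39a14 rose from 201 to 341 CPM among 0 h control mice to 954 CPM at 12 h and 627 CPM at 24 h. It then passed through 335 CPM at 48 h and 217 CPM at 72 h to 158 CPM at 96 h, under every 0 h control mouse. The LKO pools went from 488 CPM at 12 h through 354, 212 and 142 to 183 CPM. The fitted rise was 2.89-fold at 12 h (log2 1.53, SE 0.22, adjusted p = 9.1e-05) and 1.98-fold at 24 h (log2 0.99, SE 0.23, adjusted p = 0.00423). Slc39a14 had a smaller fold than the metallothioneins at 12 and 24 h and a smaller spread.

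The zinc exporter Slc30a1 changed less at 12 and 24 h than Mt1, Mt2 and Slc39a14. In control pools it was 72.0 and 69.5 CPM at 12 and 24 h, above the 34.7 to 42.1 CPM of control mice at 0 h, and in LKO pools 37.8 and 38.9 CPM, within the 28.3 to 39.2 CPM of LKO mice. The fitted changes, 1.45-fold at 12 h (log2 0.54, adjusted p = 0.0347) and 1.43-fold at 24 h (log2 0.52, adjusted p = 0.0467), passed the adjusted p but not the fold limit. Both stranded columns called Slc30a1 at 12 h, with log2 changes of 0.81 (adjusted p = 0.00157) and 0.70 (adjusted p = 0.0114), and library size alone called it at 24 h (log2 0.67, adjusted p = 0.0111). Without the control pools the changes were 0.15 and 0.19 at 12 and 24 h. Later pools of both genotypes were at 32.0 to 45.9 CPM.

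Slc30a10 first rose and then fell. Control pools were at 62.1, 34.4, 38.1, 15.7 and 35.6 CPM and LKO pools at 75.5, 54.3, 36.7, 23.2 and 56.0 CPM over the 5 times. At 12 h both pools were above all 0 h mice of their genotype, a fitted 1.54-fold (log2 0.63, SE 0.17, adjusted p = 0.00936). At 72 h both were below all of them, 2.32-fold lower than at 0 h (log2 -1.21, SE 0.19, adjusted p = 0.000305). By 96 h the fitted change was 0.02 log2 units.

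Counted together, 4 of the 5 genes rose in the 12 h comparison, beside 30.6% of 14421 genes called in either direction, and 3 of 5 in that of 24 h, beside 24.9%. None of the 5 was called at 48 h, beside 15.9% of all genes. Slc30a10 alone was called at 72 h, beside 16.4%, and none at 96 h, beside 0.381%. DESeq2 likewise called none of the 5 at 48 or 96 h. Mt1, Mt2 and no other of the 5 had an unadjusted p under 0.05 at 48 h, and none did at 96 h. Each time point rests on 2 pools. With 1 left out the other has no replicate, and its spread is taken from the mice at 0 h and the pools of the other times. Without the control pool of 12 h, 2 genes were called there, Mt1 and Slc39a14, while Mt2 (log2 3.56, adjusted p = 0.0668) and Slc30a10 (log2 0.60, adjusted p = 0.0932) missed the threshold. Without the LKO pool of 12 h, Mt1 (log2 2.61, adjusted p = 0.0646) and Mt2 (log2 2.90, adjusted p = 0.107) missed the threshold and Slc30a1 passed it (log2 0.86, adjusted p = 0.00989). Of the calls at 24 h none was left without the control pool (adjusted p from 0.0503 to 0.116), although the fitted log2 changes were 3.17 for Mt1 and 3.74 for Mt2, above those with it, and 0.80 for Slc39a14, below it. Without the LKO pool Mt1 (log2 2.55, adjusted p = 0.121) and Mt2 (log2 2.81, adjusted p = 0.179) were not called, Slc39a14 was left and Slc30a1 passed. At 48 h, Mt1 and Mt2 were both called without control mouse 1 or without control mouse 3, and Mt1 without LKO mouse 1.

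**Figure D4:**
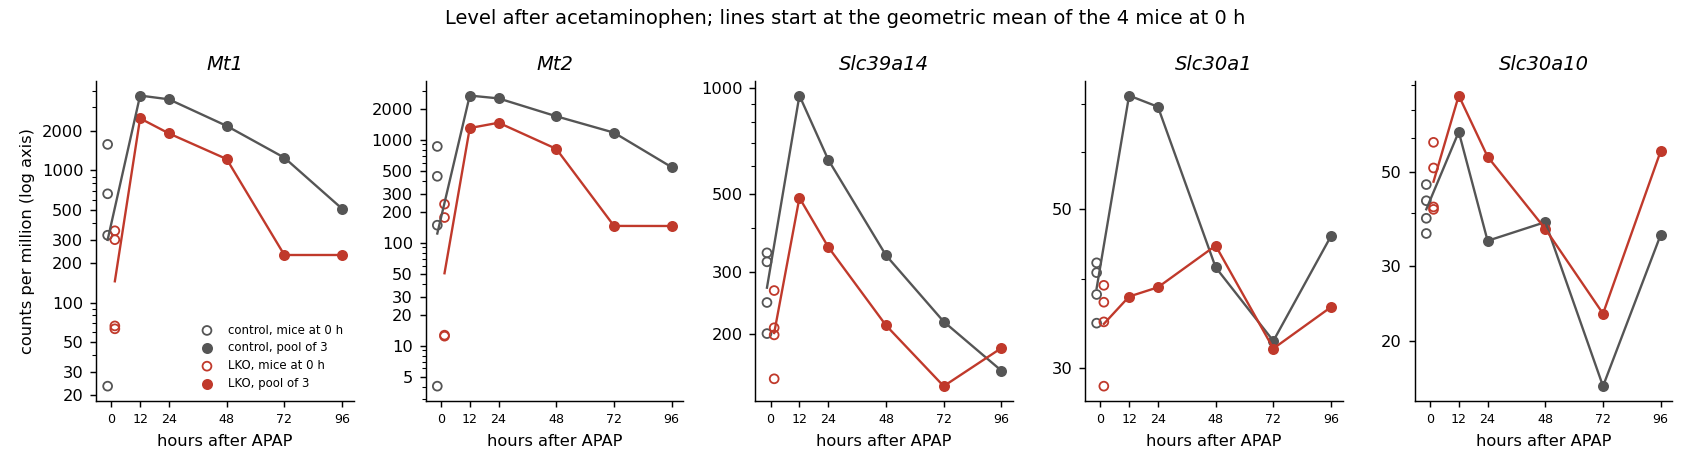
Level of each gene in CPM (log axis) against hours after APAP, with open points for the single mice at 0 h and filled points for pools of 3 mice, and lines starting at the geometric mean at 0 h. Mt1 reaches 3690 CPM in control and 2480 CPM in LKO at 12 h, and Slc30a10 reaches its lowest pools at 72 h, 15.7 and 23.2 CPM.

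RNA of cell type markers moved over the same times. Of all genes, 16.5% rose and 14.1% fell at 12 h, and 13.7% and 11.2% at 24 h. The shares were 9.63% and 6.3% at 48 h and 10.8% and 5.62% at 72 h. Neutrophil markers, 7 of 8 of which were in the files, summed to 2.64 to 13.1 CPM in control and 2.83 to 9.15 CPM in LKO mice at 0 h, and to 18.8 and 20.9 CPM in the pools at 12 h, with 4 called up. Stellate cell markers summed to 137 to 252 CPM over both genotypes at 0 h and to 1005 and 752 CPM at 72 h, where 7 of 8 were called up and Slc30a10 was lowest. All 8 were detected in every group. At 12 h 0 of these stellate markers were called up and 3 down, and at 24 h 2 up and 2 down. Macrophage markers, all 12 detected, summed to 215 to 530 CPM at 0 h and to 678 and 798 CPM at 72 h, with 6 called up. At 12 h 2 of them were called up and 1 down, and at 24 h 4 up and 3 down. Of 8 endothelial markers 2 were called up and 2 down at 12 h, 1 up and 3 down at 24 h, and 0 up and 2 down at 72 h. Hepatocyte markers summed to 138309 and 102758 CPM in the 72 h pools, and none of the 8 was called there. At 12 h 1 of them was called down, at 24 h 4 down and 1 up (median log2 -0.60) and at 48 h 2 down, with sums of 69788 to 108845 CPM in the pools of these times. Cholangiocyte markers summed to 172 CPM in the control pool of 12 h, with all 6 detected, against 37.5 to 78.0 CPM in control mice at 0 h and 36.3 CPM in the LKO pool of 12 h. At 48 h they summed to 216 CPM in the control and 86.5 CPM in the LKO pool, again with all 6 detected, and in the pools of 24, 72 and 96 h to 21.5 to 68.4 CPM. In bulk tissue fewer cells of a type and less RNA per cell cannot be told apart, and the part of cell makeup in these changes was not tested.

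Between the genotypes after APAP, the metallothioneins were lower in LKO than in control livers at every time, without passing the threshold. The LKO pool minus the control pool was -0.57, -0.86, -0.83, -2.45 and -1.16 log2 units for Mt1 at 12, 24, 48, 72 and 96 h. For Mt2 it was -1.05, -0.79, -1.05, -3.01 and -1.90. A difference of one sign at all 5 times was not rare, since 7.99% of 14421 genes were lower in LKO at all 5. The gap was widest at 72 h, where Mt1 was 1249 CPM in the control and 229 CPM in the LKO pool, and Mt2 1171 and 146 CPM. Between these 2 pools 0.714% of genes had a lower difference than Mt1 and 0.277% a lower one than Mt2. With the 5 times as blocks, the fitted difference was -1.17 for Mt1 (SE 0.26, 95% interval -1.74 to -0.60, edgeR adjusted p = 0.0728) and -1.55 for Mt2 (SE 0.30, 95% interval -2.22 to -0.88, adjusted p = 0.0573). Each time holds 1 pool per genotype, so the 5 times stand in for replicates. The errors and p-values of this comparison, in DESeq2 too, measure how even the gap was over time and not the spread between mice. Of the 5 genes 0 were called, beside 0.579% of 12782 genes, with 2284 genes at an unadjusted p under 0.05 and all 5 genes among them. DESeq2 called 606 genes, including Mt1 (adjusted p = 0.000151) and Mt2 (1.74e-06). At 0 h the LKO mice lay within the control range, with medians of 183 against 495 CPM for Mt1 and 94.1 against 295 CPM for Mt2. Without the pools of 72 h the fitted differences were -0.86 for Mt1 and -1.19 for Mt2 (adjusted p = 0.157 and 0.105). Without the pools of 12 h they were -1.31 and -1.67 (adjusted p = 0.119 and 0.109), and Slc30a1 was -0.28 in place of -0.42.

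Slc39a14 was lower in the LKO pool from 12 to 72 h, by -0.96, -0.82, -0.66 and -0.61 log2 units, and higher at 96 h, by 0.21. Its fitted difference was -0.58 (SE 0.19, adjusted p = 0.167). Slc30a1 was lower at 12 and 24 h, by -0.93 and -0.83, and close to the control pool at 48 and 72 h, with 0.10 and -0.04, then -0.33 at 96 h (fitted -0.42, SE 0.18, adjusted p = 0.263). Slc30a10 ran the other way in value, with 0.28, 0.65, -0.05, 0.56 and 0.65 (fitted 0.41, SE 0.15, adjusted p = 0.207). At 12 h the 2 pools differed widely, with 23.9% of genes at least 1.5-fold lower in LKO and 19.8% at least 1.5-fold higher, so values of that size were common there. At 24 h the shares were 12.5% and 9.98%.

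**Figure D5:**
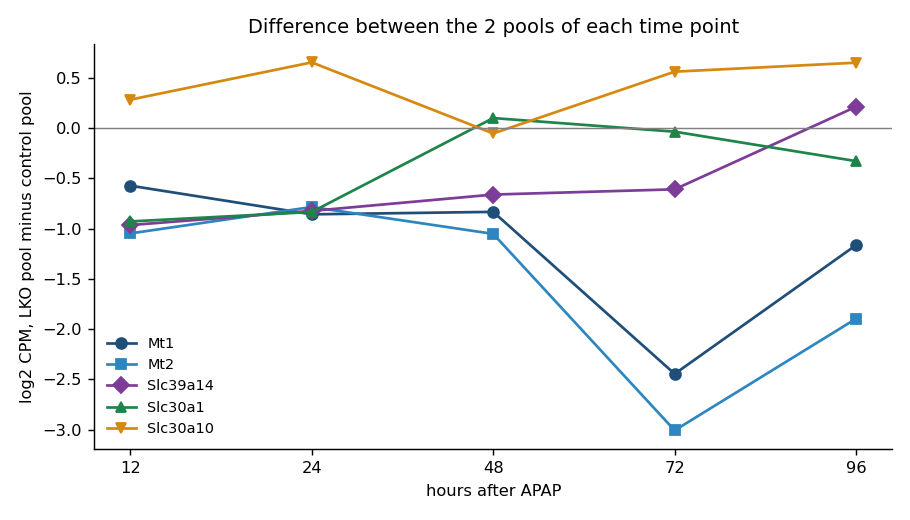
Log2 CPM of the LKO pool minus the control pool for each gene at 12, 24, 48, 72 and 96 h after APAP, with a line at 0 for no difference. Mt1 and Mt2 are under 0 at all 5 times and lowest at 72 h (-2.45 and -3.01), and Slc30a10 is above 0 at 4 of 5.

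Other genes named in these comparisons by pathway moved in part with the 5. In the difference between genotypes after APAP, 0.329% of all genes tested fell in LKO. Of 9 hypoxia targets tested 2 fell, Hilpda, a lipid droplet protein (log2 -2.99, edgeR adjusted p = 0.0458), and Slc2a1, the GLUT1 glucose carrier (log2 -1.5, adjusted p = 0.0484). Of 9 NRF2 targets 1 fell, Hmox1, which breaks down heme (log2 -1.21, adjusted p = 0.0484). None of the STAT3 acute phase, glucocorticoid-induced, clock, copper or marker lists had a call there, but some acute phase and neutrophil values moved with the metallothioneins at the later times. Lcn2, which binds siderophores, differed by -3.58 log2 units between the LKO and control pools of 72 h, and by -3.57 at 96 h. For Socs3, a feedback inhibitor of STAT3 signalling, the differences were -2.56 and -1.75. Both genes were picked here for their values, and over the 16 STAT3 acute phase genes the median fitted difference was -0.15. Neutrophil markers summed to 36.1 CPM in the control and 10.4 CPM in the LKO pool of 48 h, and to 31.4 and 9.59 CPM at 72 h. At 24 h they went the other way, with 14.7 and 33.6 CPM, while Mt1 and Mt2 were lower in LKO. Their part in the metallothionein difference was not tested. At 12 h, 16.5% of all genes rose and 14.1% fell, the background for the following counts. When 4 of the 5 genes rose, 7 of 9 NRF2 targets rose (median log2 2.37), led by Slc7a11, the cystine carrier (log2 7.89), and Gsta1, a glutathione transferase (log2 5.50). Of 16 STAT3 acute phase genes 9 rose (median log2 1.12), led by Lcn2 (log2 4.52) and Orm2 (log2 2.26), a plasma acute phase protein. Of 9 glucocorticoid-induced genes 2 rose and 1 fell, with Sgk1, a kinase, at 1.62 and Tsc22d3 at -2.49. Of 9 hypoxia targets 4 rose, with Hilpda at 5.40 and Slc2a1 at 3.22. Of 14 clock genes 3 rose and 5 fell, with Dbp at -2.92 and Arntl at 1.82. The median over all genes was -0.007. At other times these lists did not keep step with the metallothioneins. At 24 h 3 of 16 acute phase genes rose, and of 9 NRF2 targets 6 rose and 1 fell, beside 13.7% and 11.2% of all genes. At 72 h, with neither Mt1 nor Mt2 called, 5 of 9 NRF2 targets and 2 of 16 acute phase genes rose, beside 10.8%.

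Copper handling genes, which serve the other metal that metallothioneins bind, did not rise at 12 h. Of 9 tested 0 rose and 4 fell, beside 14.1% of all genes that fell, the largest changes being in Slc31a1, the copper importer CTR1 (log2 -1.18, adjusted p = 0.000493), and Cox17, a copper chaperone of mitochondria (log2 -1.07, adjusted p = 0.00352). At 24 h 2 rose and 1 fell, beside 13.7% and 11.2% of all genes, with Atox1 at 0.87 and Ccs at -0.77. At 48 h Ccs alone was called and fell (log2 -0.89), beside 6.3% of all genes that fell. At 72 h Commd1 alone was called and rose (log2 0.66), beside 10.8% that rose, and at 96 h none was called. In a list of 9, these later counts are near the shares of all genes.

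The wider zinc and manganese system was described by a list of 31 further genes, of which 30 were in the files and 19 had a median of at least 10 CPM in the 0 h mice. In each genotype comparison 25 were tested and edgeR called 0 of them, after APAP as well as before. The MTF1 gene itself was at 20.0 to 27.9 CPM in the 8 mice of the LKO cohort at 0 h and at 16.0 to 24.6 CPM in the pools, and was not called at any time. At 12 h 2 of 28 tested rose and 2 fell, beside 16.5% and 14.1% of all genes. Slc39a6 (ZIP6, a zinc importer) rose by 0.93 log2 units (adjusted p = 0.0219). Slc39a8 (ZIP8), an importer of zinc and manganese and the closest relative of Slc39a14, fell by 0.91 (adjusted p = 0.00218), and Slc39a11 (ZIP11) fell by 0.84 (adjusted p = 0.00341). Slc39a8 was 25.1 to 34.9 CPM in the 8 mice at 0 h and 14.5 and 15.0 CPM in the pools at 12 h, when Slc39a14 was at its highest. It was still under the 0 h mice in the control pools of 24 to 96 h, at 17.7 to 21.7 CPM, and at 24.2 to 34.9 CPM in the LKO pools.

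At 24 h 5 of 28 were called up and 1 down, beside 13.7% and 11.2% of all genes, a share near the background. Among the 5 were Mt3 and Mt4, which had 0 counts in all 8 mice at 0 h. They passed the filter through the pools alone, so their calls at any time are set aside. The rises left at 24 h are those of the genes named next. Slc39a6 had its largest change (log2 1.51, adjusted p = 0.00108), and Slc30a4 (ZnT4), which loads vesicles with zinc, and Tmem165, which carries manganese into the Golgi, rose by 0.81 and 0.64. Slc39a4 (ZIP4), a zinc importer best known from the intestine, fell by 0.61 (adjusted p = 0.00552) and at 48 h by 0.90 (adjusted p = 0.000596). At 48 h 5 were called up and 1 down, beside 9.63% and 6.3% of all genes. With Mt3 and Mt4 again set aside, the rises left were Slc30a4 at 0.86, Slc39a13 (ZIP13), a zinc carrier of the secretory pathway, at 0.83 and Tmem165 at 0.74. At 72 h 4 were called up and 0 down, beside 10.8% and 5.62% of all genes. With Mt4 set aside, the rises left were Slc30a3 (ZnT3, log2 1.38), Tmem165 (1.05) and Slc39a13 (0.74). At 96 h 0 were called in edgeR, where 55 of all genes were.

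The remaining metallothionein genes, Mt3 and Mt4, were called at 24 and 48 h, and Mt4 at 72 h, from few reads. Both had 0 counts in all 8 mice of the LKO cohort at 0 h, which allows up to 3 counts per library. Mt3 had 4, 17, 14, 7 and 0 counts in the control pools and 0, 9, 22, 0 and 0 in the LKO pools. Mt4 had 3, 5, 21, 7 and 0 counts in the control pools and 0, 2, 0, 1 and 0 in the LKO pools. Levels this close to the floor give no fold change.

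Across the 24 libraries the genes whose log2 CPM was most like that of each of the 5 were named by Pearson's r, as a description over libraries that share cohorts and time points. Mt1 and Mt2 were each other's nearest among 14500 genes (r = 0.98 over 24 libraries and 0.99 over the 14 mice at 0 h). Next for Mt1 were Eif1a (r = 0.87), a translation initiation factor, and Twf1 (r = 0.87), an actin-binding protein. Next for Mt2 were Cdkn1a (r = 0.84), the p21 cell cycle inhibitor, and Eif1a (r = 0.83). Slc39a14 was most like Ncdn (r = 0.92), Arl4a (r = 0.91) and Ddx24 (r = 0.90). Slc30a1 was most like Foxn2 (r = 0.82), Hgsnat (r = 0.79) and Pcf11 (r = 0.79). Among the genes most like Slc30a10 were Stat5a (r = 0.75) and Telo2 (r = 0.75). Within the 5 genes, r between Mt1 and Slc39a14 was 0.72 over 24 libraries, between Mt1 and Slc30a1 0.45 and between Mt1 and Slc30a10 0.04.

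Reads that could also belong to genes on the other strand bear on both exporters. Slc30a1 overlaps an antisense gene (1700034H15Rik, 1 to 19 counts) and Slc30a10 a long noncoding RNA (Gm2061, 7 to 103 counts). The count that disregards strand leaves out reads in such overlaps, a median of 14.4% per library (4.38% to 27.6%) for Slc30a1 and 12.6% (4.51% to 19.5%) for Slc30a10, and 0% for the other 3 genes.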

How the data were processed

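PolyA RNA of mouse liver was sequenced in 24 libraries. Per the labels and methods, the authors used Trimmomatic and then STAR against mm10, and the deposited files hold its raw gene counts. The annotation version was not given in the sources used here. Of the 3 count columns per library, the one that ignores strand was analysed. The other 2 had similar totals, so strand is not marked, and they served as alternatives.

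Counts were fitted over all genes in R 4.3.3 with edgeR 4.0.16 (filterByExpr, TMM, two-sided quasi-likelihood F-test, Benjamini-Hochberg over all genes tested). Calls needed an adjusted p under 0.05 and a fold of at least 1.5, and intervals are 95%. DESeq2 1.42.0, the tool of the study's methods, was an alternative, as were other scalings, filters, a replicate block and the omission of each library. Time comparisons used 18 libraries with genotype as a covariate. The pool comparison over 12 to 96 h used time as a block. Single pool differences are log2 CPM with a prior count of 2 and were not tested. The ratio test used scipy 1.17.1. The fits were tested on simulated data. Counts assigned to no gene (7.30% to 14.7% on no feature) stayed out. Coordinates and lengths are from GENCODE vM21, promoters from RefSeq. Replicates at 0 h are single mice per the methods.

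Members and gene lists were chosen with earlier results of these data known. Named are the 5 genes, the called genes of the zinc and manganese list, up to 2 called genes of each other list with the largest change, and the 3 genes most like each of the 5, except that 2 genes these rules pick are not reported here. Depth was 12665686 to 19499897 reads on genes, and count intervals cover counting error only.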

Additional observations from a re-analysis of the deposited data

Results flagged for a closer look

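Slc30a10 moved in opposite directions in the 2 genotypes at 2 of the 5 times, against the mean of each genotype's own mice at 0 h. At 24 h the control pool was lower by 0.25 log2 units, with a change of -0.25, and the LKO pool higher by 0.19, a difference of 0.44 between them. At 96 h the changes were -0.20 and 0.24, again a difference of 0.44. Each rests on 1 pool per genotype and the difference was not tested. Both LKO pools, at 54.3 and 56.0 CPM, lay within the 40.8 to 58.6 CPM of the LKO mice at 0 h, and both control pools, at 34.4 and 35.6 CPM, just under the 35.8 to 46.7 CPM of the control mice. The standard deviation among the 4 mice at 0 h was 0.17 log2 units in control and 0.25 in LKO. No mouse was flagged for any of the 5 genes in the groups of 4 by Dixon's criterion. With 4 mice this test flags only a very wide gap, so it cannot show that no mouse was separate. Control mouse 1 was not flagged at 4.04 CPM for Mt2 and 23.3 CPM for Mt1. The next lowest control mouse was at 148 and 324 CPM.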

How the results depend on the processing

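Of 830 recomputed fold changes of the 5 genes, 769 kept their direction and their side of the threshold, 23 passed it newly, 9 lost it and 29, none of them called, changed sign. Slc30a10 was called in HKO mice in all 16 alternatives (log2 1.33 to 1.61) and at 72 h in all 19 (-1.47 to -1.07). In LKO against control pools the number of the 5 genes called was 0 in edgeR, 2 with no filter beyond 1 count and with DESeq2 (Mt1 and Mt2), and 1 with stranded column 4 (Mt2, adjusted p = 0.0433). DESeq2 called 1, Slc30a10, when the LKO effect was set against the HKO effect. At 48 h, 1 was called with RLE scaling, with no filter beyond 1 count or with stranded column 3, and 2 with library size alone. With either stranded column 5 were called at 12 h, and with library size alone 4 at 24 h. Leaving out 1 library gave 2 to 4 calls at 12 h, 0 to 3 at 24 h and 0 to 2 at 48 h. With the replicate block, 1 of the 5 was called in HKO mice (Slc30a10, log2 1.47, adjusted p = 0.00627) and 0 in LKO mice and in the difference of the effects. Same-numbered mice correlated at 0.198, -0.031 and 0.105 in the HKO and -0.379, -0.188, 0.0982 and 0.223 in the LKO cohort. These few values show no clear pairing by number, and they are too few to settle it. The block moved the count over all genes in HKO mice from 119 to 263.

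Uncalled values that changed sign were Mt2 in HKO mice, at 0.061 with library size alone and 0.011 with stranded column 4, Slc30a1 in the difference of the effects, at -0.014 with stranded column 4, and Slc30a10, at 0.11 with library size alone at 24 h and at -0.011 and -0.063 with stranded columns 3 and 4 at 96 h. Leaving out 1 library gave -0.77 to 0.43 for Mt1, -0.86 to 0.79 for Mt2 and -0.18 to 0.37 for Slc39a14 in HKO mice, and -0.14 to 0.16 for Slc30a1 in the difference of the effects. It gave -0.21 to 0.14 for Slc30a10 at 24 h, -0.0046 to 0.44 for Slc30a1 at 48 h, and -0.22 to 0.40 for Mt1 and -0.17 to 0.18 for Slc30a10 at 96 h. For the log2 ratio of Mt1 to Mt2 it gave -0.38 to 0.043 in the HKO and -0.062 to 0.66 in the LKO cohort. The cause was not tested. Over all genes, the number called ran from 31 to 327 in HKO mice (119 as reported), 0 to 3 in LKO mice, 0 to 21 in the difference of the effects and 0 to 606 after APAP (74). Over time it ran from 2151 to 4898 at 12 h (4412), 1177 to 3982 at 24 h (3590), 507 to 2734 at 48 h (2297), 514 to 2572 at 72 h (2369) and 7 to 332 at 96 h (55). The pools have no replicates, which limits the time course.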

Other observations

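Slc39a10 (ZIP10), another zinc importer, was at 2.54 to 5.54 CPM in the 8 mice of the LKO cohort at 0 h. The LKO pools of 12 and 24 h had 10.8 and 18.6 CPM, and the control pools of these times 3.91 and 2.40 CPM. At 48 h the LKO pool was at 2.86 CPM, within the range at 0 h. The gene was not called in any comparison and was named after its values were seen.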
